A study of Mus musculus with 2 samples.

Results

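The genes described here are the erythroid microRNA genes of the miR-144/miR-451 and miR-486 loci: Mir451a, Mir144, Mir486, Mir3107 and Mir451b, 5 of the 2202 microRNA genes counted in the series. They were taken by their GENCODE M21 symbols through the Ensembl identifiers of the count files, and the rule itself uses no measured value. All 5 were found. The libraries are microRNA-seq of the adrenal gland from male B6CASTF1/J mice aged 36 days, the F1 hybrid of the C57BL/6J and CAST/EiJ strains, with no treatment named in the labels. There is 1 group with 2 biological replicates of 1 library each, and both list the same donor record while naming differently numbered animals. Reads of CAST/EiJ alleles were counted on the mm10 assembly, which is of C57BL/6J, and the part of this in the levels was not tested.

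MicroRNAs are short RNAs, cut from hairpin precursors, that guide Argonaute proteins to messenger RNAs. The miR-144/miR-451 locus is switched on by GATA1 during red cell maturation, and its products are kept in circulating red cells, which have lost their nucleus. miR-451a is known for a maturation route without Dicer, in which the slicer protein AGO2 cuts the short hairpin, and miR-486 is abundant in red cells and in striated muscle. A whole gland holds blood in its vessels, so these microRNAs can enter an adrenal library without coming from the steroid-producing cortex or the medulla.

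The sequences show which reads can be told apart at the miR-144/miR-451 locus. RefSeq sequences (GRCm38.p6, the assembly of mm10) were matched for 3 of the 5 genes, with 4 mature products. Hairpins are given 5′ to 3′, with the mature products in capitals.
Mir451a: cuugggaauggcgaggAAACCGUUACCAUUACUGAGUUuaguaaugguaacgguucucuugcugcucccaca
Mir451b: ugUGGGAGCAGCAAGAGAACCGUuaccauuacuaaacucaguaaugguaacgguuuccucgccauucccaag
Mir144: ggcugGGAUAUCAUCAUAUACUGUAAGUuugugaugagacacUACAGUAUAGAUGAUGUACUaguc

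Mir144 (ENSMUSG00000065401.1) lies on the plus strand of chromosome 11 from 78073005 to 78073070 in mm10, and Mir451a (ENSMUSG00000070065.1) follows on the same strand from 78073170 to 78073241, with 99 bases between them. Mir451b (ENSMUSG00000104813.1) takes the same interval as Mir451a on the minus strand, so that its hairpin is the reverse complement of that of Mir451a. The locus lies between genes, and the nearest annotated gene is Eral1 on the minus strand, 134 bases from Mir451a. Mir486 (ENSMUSG00000070084.3) lies on the plus strand of chromosome 8 from 23142555 to 23142682, in an intron of every overlapping transcript of Ank1, the gene of the red cell membrane anchor ankyrin. Mir3107 (ENSMUSG00000106471.1), known also as mir-486b, lies inside that interval on the minus strand from 23142573 to 23142662. It is in an intron of the antisense gene Gm15816.

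The mature products are shown with the seed, bases 2 to 8, in capitals, because the seed decides most target pairing.
miR-451a: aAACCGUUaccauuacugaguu
miR-451b: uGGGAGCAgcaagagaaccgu
miR-144-5p: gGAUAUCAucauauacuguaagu
miR-144-3p: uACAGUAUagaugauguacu

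The 4 seeds differ from one another, and none is shared over bases 2 to 8 with another mature product of the RefSeq table. Over bases 2 to 7, miR-144-3p shares its seed with 1 other product, miR-101a-3p. Its gene Mir101a, a tumour-suppressor microRNA named here for the seed alone, had 2393 counts (532 CPM) in replicate 1 and 382 counts (184 CPM) in replicate 2. CPM is the count of a gene for each 1000000 counts assigned to all microRNA genes of the library. Mir144 stood above Mir101a in replicate 1 and below it in replicate 2.

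The position of miR-451a in its hairpin differs from that of the other 3 products. It takes bases 17 to 38 of the 72, and in the minimum free energy structure predicted by RNAfold it holds all 4 bases of the terminal loop. miR-144-5p, miR-144-3p and miR-451b hold 0 loop bases each, and lie on the arms. Of 1635 mature products that could be placed in a folded RefSeq hairpin, 21 (1.28%) hold 4 or more loop bases, and 1568 (95.9%) hold none. Of the 22 bases of miR-451a, 17 are paired in that structure. These are features of the reference sequence, and the gene counts do not say which bases of a hairpin were read.

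The plus and minus strand genes of the miR-451 locus have similar but not equal sequences. The hairpins of Mir451a and Mir451b share the base at 52 of 72 positions. The best ungapped match of miR-451a in the Mir451b hairpin has 18 of 22 bases, the longest shared run being 16 bases. Counted from the 5′ end of miR-451a, the differences are A1G, G18A, G20A and U21C, shown here in capitals against the facing part of Mir451b.
miR-451a: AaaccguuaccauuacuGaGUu
Mir451b: GaaccguuaccauuacuAaACu

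Counts at the miR-451 locus lay on a single strand. Mir451a had 64554 sense counts in replicate 1 and 1877 in replicate 2, and Mir451b had 0 in each. The opposite-strand column of Mir451b held 64554 and 1877 counts, the same values as the sense column of Mir451a, whose own opposite-strand column held 0. All counts of the interval were therefore on the plus strand. A count of 0 allows up to 3 counts, which is 0.667 CPM in the first and 1.44 CPM in the second library. Mir451a was at least 21518-fold higher than Mir451b in replicate 1 and at least 626-fold higher in replicate 2, with the floor of 3 counts in each library.

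Mir486 had 174 sense counts in replicate 1 and 73 in replicate 2. Mir3107, on the other strand, had 6 and 5. Mir486 stood 29.0-fold above Mir3107 in replicate 1 (95% counting interval 13.1 to 80.1) and 14.6-fold above it in replicate 2 (5.98 to 46.3). The opposite-strand columns mirrored these counts, with 6 and 5 for Mir486 and 174 and 73 for Mir3107. Among reads that fit a single place of the genome, both strands of the Ank1 intron were thus read, mostly the strand of Ank1. Reads of miR-486 that fit both strands are outside these counts and ratios.

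In the column that ignores strand, the counts of 4 of these 5 genes were 0 in each library, because a read in an interval held by genes of both strands is set aside as ambiguous there. Mir144, which overlaps no other gene, kept 6476 and 319 counts in that column. Across the series 64 genes overlap a microRNA gene of the opposite strand. Of the 29 with at least 10 sense counts in both libraries, 25 had 0 strand-blind counts in both. All levels below come from the sense column.

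Reads that fit several places of the genome are left out of every gene, and were 29.8% of the reads of replicate 1 and 21.5% of those of replicate 2. The mature products of mir-486a and mir-486b are known to be near-identical, so a read of miR-486 can fit both strands of this interval. The level of Mir486 and that of Mir3107 are therefore uncertain, and how many such reads were set aside was not tested.

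Among reads that fit a single place, Mir451a was the most abundant of the 5 genes in each library, followed by Mir144 and Mir486. The place of Mir486 in this order is uncertain, because reads that fit several places are left out. Mir451a stood at 14362 CPM in replicate 1 (rank 17 of all genes) and at 903 CPM in replicate 2 (rank 92). Mir144, cut from the same primary transcript, stood at 1441 CPM (rank 63) and 153 CPM (rank 182). For both genes replicate 1 was the high library, and the counting intervals of the libraries were far apart.

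Mir486 stood at 38.7 CPM in replicate 1 (95% counting interval 33.2 to 44.9, rank 230) and at 35.1 CPM in replicate 2 (27.5 to 44.2, rank 253). Mir3107 stood at 1.34 CPM (0.490 to 2.91) and 2.41 CPM (0.781 to 5.61). In each of these genes the intervals of the libraries overlap. These intervals and floors hold only the error of counting, since copies of 1 molecule made by PCR cannot be told from separate molecules.

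**Figure D1:**
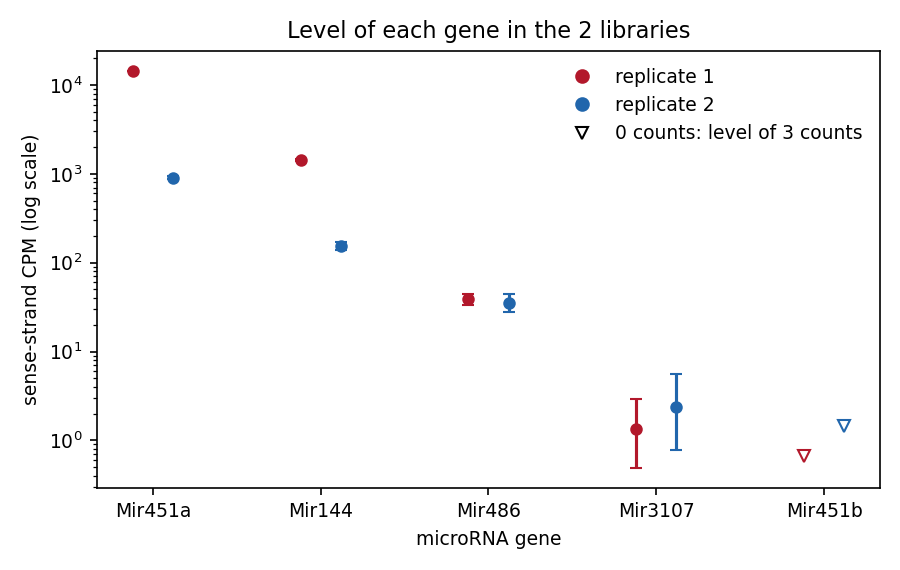
The plot shows sense-strand CPM on a log axis for each gene in the 2 libraries, with exact 95% counting intervals, and open triangles at the level of 3 counts where a gene had 0. Mir451a and Mir144 lie higher in replicate 1, while the intervals of Mir486 and of Mir3107 overlap between the libraries.

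As means over the 2 libraries, Mir451a had 7632 ± 9517 CPM (SD, n = 2), Mir144 797 ± 910 CPM, Mir486 36.9 ± 2.54 CPM and Mir3107 1.87 ± 0.757 CPM. The SDs of Mir451a and Mir144 exceed their means, so these means do not separate Mir144 from either neighbour in that order. Within each library the order by these counts was the same: Mir451a, Mir144, Mir486, Mir3107, Mir451b. Ratios within each library are given below. The place of Mir486 leaves out reads that fit several places. The 5 genes together held 1.58% of gene counts in replicate 1 and 0.109% in replicate 2. Mir451a made up 90.7% and 82.5% of that sum.

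The single design question these labels allow is how far the libraries differ. For each gene with at least 10 counts in both libraries, an exact binomial test (two-sided) set its 2 counts against the library sizes scaled by TMM in edgeR, with Benjamini-Hochberg adjustment over 333 genes. Counting is the only source of error in this test, which compares these libraries, not conditions. It called 260 of 333 genes (78.1%). Those higher in replicate 1 were 38.7% of the 333, and those higher in replicate 2 were 39.3%. The median log2 ratio of replicate 2 over replicate 1 was 0.01, and the middle of the distribution, from the lower to the upper quartile, ran from -0.59 to 0.69.

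Of the 5 genes, 3 reached the count minimum, and 2 of these 3, Mir451a and Mir144, were higher in replicate 1. Mir451a had a log2 ratio of -4.18 (95% counting interval -4.24 to -4.11), which is 18.1-fold more in replicate 1. Mir144 had a log2 ratio of -3.42 (-3.58 to -3.25), or 10.7-fold more in replicate 1. The adjusted binomial p of both was below 1e-300. With 78.1% of all genes called, being called sets neither gene apart. By size of the ratio, they took places 2 and 3 of 333 toward replicate 1, after Mir301, and 20 of the 333 genes differed by over 4-fold in either direction.

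Mir486 had a log2 ratio of -0.33 (95% counting interval -0.74 to 0.08) and did not pass the test (binomial adjusted p = 0.131). That ratio lies inside the quartiles of all tested genes. Mir486 passed the binomial test when genes with fewer counts were added (log2 ratio -0.49, adjusted p = 0.0384), beside 299 of 749 genes called. It also passed after a linear correction for hairpin GC content chosen after seeing the data (-0.66, adjusted p = 0.00137), beside 252 of 333. Mir3107 was testable only without a count minimum, over 749 genes, with a log2 ratio of 0.50 (-1.56 to 2.47, adjusted p = 0.746). Mir451b had no count to test.

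The edgeR exact test, with a common dispersion estimated from these same libraries (a biological coefficient of variation of 52.2%), called 6 of 333 genes (1.80%). Mir451a was among them (edgeR adjusted p = 0.0453), and Mir144 (0.151) and Mir486 (0.987) were not. The call of Mir451a was lost when genes with fewer counts were added (edgeR adjusted p = 0.286), a fit that called 7 of 749 genes.

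**Figure D2:**
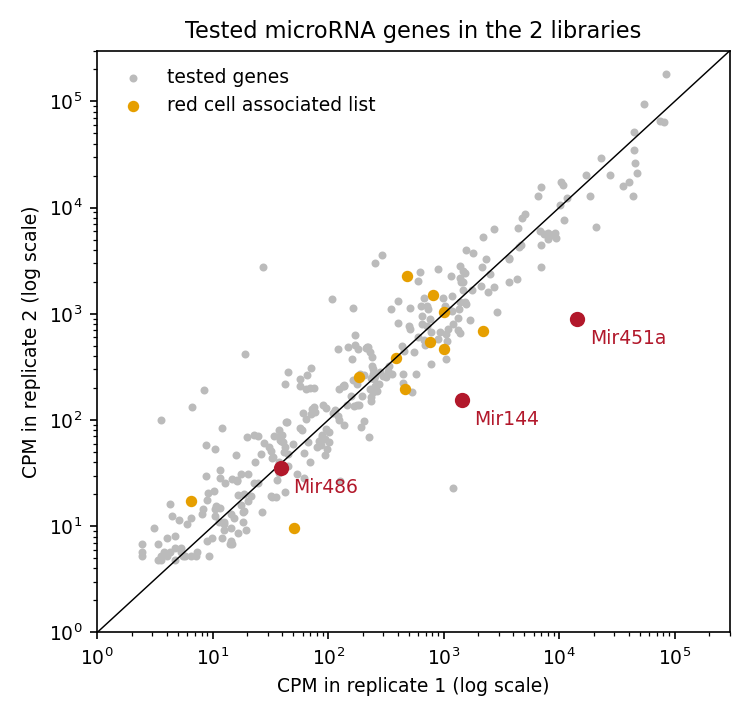
The plot sets CPM in replicate 2 against CPM in replicate 1, both on log axes, for the 333 tested genes, with the line of equal CPM. Mir451a and Mir144 lie well below the line, Mir486 close to it, and the 11 tested genes of the red cell list on both sides of it.

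Mir451a and Mir144 are known to be cut from 1 primary transcript, so their ratio was compared within each library. Mir451a had 9.97 counts for each count of Mir144 in replicate 1 (95% counting interval 9.72 to 10.2) and 5.88 in replicate 2 (5.22 to 6.65). The mean was 7.93 ± 2.89 (SD, n = 2). The intervals do not overlap, and the ratio was 1.69-fold larger in replicate 1. On the log2 scale the ratio thus moved by 0.76 between the libraries, while the log2 ratios of the genes themselves were -4.18 and -3.42.

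A difference of 0.76 lay near the middle of those between neighbouring genes, without regard to how far the genes of each pair moved. Over 105 pairs of tested genes that follow each other on 1 strand within 10 kb, the median absolute difference of the library ratio was 0.73 on the log2 scale, and 51 pairs differed by more than Mir144 and Mir451a. The level of Mir451a exceeded that of Mir144 by 2.94 on the log2 scale, against a median absolute difference of 2.16, and 36 pairs lay further apart. These values describe the pairs, which share genes and libraries, and carry no test.

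**Figure D3:**
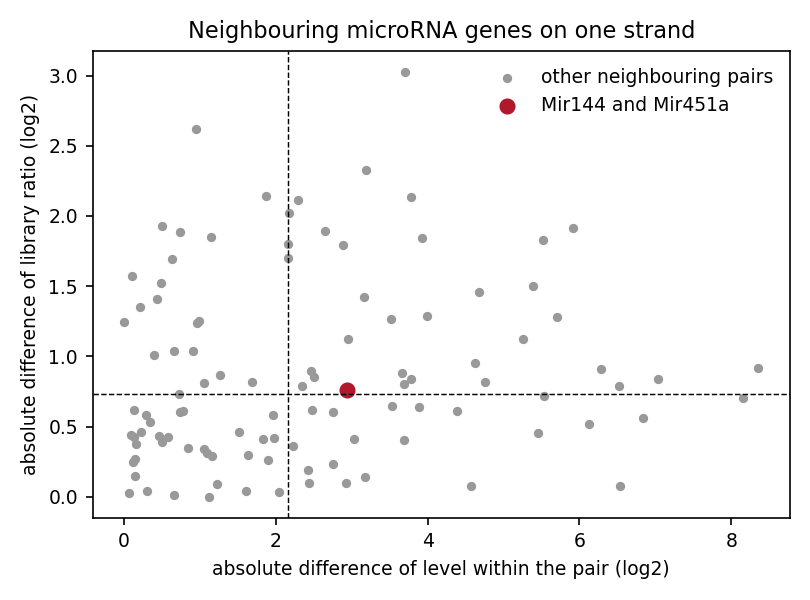
Each point is a pair of neighbouring tested microRNA genes on 1 strand, with the absolute difference of their mean log2 level on the horizontal axis and that of their log2 library ratio on the vertical axis. Dashed lines mark the medians (2.16 and 0.73), and Mir144 with Mir451a lies close to the second.

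Against Mir486, both genes of the chromosome 11 locus shifted strongly. Mir451a had 371 counts for each count of Mir486 in replicate 1 (95% counting interval 320 to 433) and 25.7 in replicate 2 (20.4 to 33.0). For Mir144 the values were 37.2 (32.0 to 43.5) and 4.37 (3.38 to 5.72). The counts of the chromosome 11 locus and those left for Mir486 after reads of several places were set aside therefore did not move together between these libraries. Whether miR-486 as a whole did so was not tested.

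The genes whose library ratio lay nearest that of Mir451a, apart from the 5, were Mir92-2, Mir301 and Mir153. Their log2 ratios differed from it by 1.59, 1.70 and 1.73, over 2 libraries. Mir92-2, of a paralogue of the miR-17/miR-92 cluster, had 228 and 20 counts in replicates 1 and 2, a log2 ratio of -2.58. It is also in the red cell list below, and reads shared with its copy Mir92-1 are outside these counts. Mir301 had 5365 and 48 counts (-5.88), and Mir153, known from neurons, 572 and 55 (-2.45). None lay as near to Mir451a as Mir144 did, at 0.76.

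Other microRNAs linked to red cells were called in both directions. A list of 12 genes whose products are abundant in red cells or rise as they mature (among them the miR-15/miR-16, miR-25/miR-92 and miR-182/miR-96 genes) summed to 7390 CPM in replicate 1, against 7361 CPM in replicate 2. Its 11 tested genes split into 7 that were higher in replicate 1 and 4 that were higher in replicate 2, beside 38.7% and 39.3% of all 333 genes, and their median log2 ratio was -0.22 against 0.01 for all genes. With scaling by library size alone, which moves the median of all genes to 0.19, the split was 5 and 4 with 2 not past the test. Of all 333 genes, 112 were called higher in replicate 1 and 149 in replicate 2 in that fit. Mir185, named for its change of sign, turned from -0.15 to 0.03. With no count minimum the split was 8 and 3 (median -0.62). In that fit 299 of 749 genes were called, by their log2 ratio 164 higher in replicate 1 and 122 in replicate 2 (median 0.09). With the GC correction the split of the list was also 8 and 3 (median -0.56), beside 130 and 122 of 333 genes (median -0.03). Mir363, the member under the count minimum, named for that reason, had 96 and 9 counts. Mir16-1, which restrains the cell cycle, had 2203 and 688 CPM (log2 ratio -1.86). Mir107, encoded in an intron of a pantothenate kinase gene, had 484 and 2285 CPM (2.05). These are the 2 highest members by the mean of both libraries, and that mean takes a gene high in either one. The 2 highest in replicate 1 alone were Mir16-1 and Mir92-1 (log2 ratio -1.29), and in replicate 2 alone Mir107 and Mir15b (0.70). Mir92-1 and Mir15b were chosen after their values were seen. Mir16-1 and Mir16-2 are numbered copies, as are Mir92-1 and Mir92-2, and reads shared by copies are outside the counts. Mir92-2, also of this list, had the ratio nearest that of Mir451a outside the 5 genes (-2.58). Which cells of the gland the counts of this list came from was not tested, so its sums do not measure red cells.

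MicroRNAs that are known to fall while red cells mature were also called in both directions. All 7 genes were tested, 4 being higher in replicate 1 and 3 in the other library, beside 38.7% and 39.3% of all tested genes, with a median log2 ratio of -0.48 and summed levels of 2134 and 3282 CPM. With library size scaling the split was 3 and 3 with 1 not past the test, beside 112 and 149 of all 333 genes. Mir150, a lymphocyte microRNA, had 734 and 1104 CPM (log2 ratio 0.40), and Mir221, which restrains the growth factor receptor gene Kit, had 514 and 1132 CPM (0.96). The 4 genes higher in replicate 1, named after their values were seen, were Mir24-2 (-0.67), Mir223 (-0.56), Mir155 (-0.56) and Mir24-1 (-0.48). Mir24-1 and Mir24-2 are numbered copies, and reads shared by copies are outside the counts. Mir150, Mir155 and Mir223 are also in the list of nucleated blood cells below, so the lists share counts and are not separate observations. Which cells of the gland made these microRNAs was not tested.

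Markers of the other cells that blood and its vessels hold are given beside the difference of Mir451a and Mir144. The 7 genes of nucleated blood cells summed to 3219 CPM in replicate 1, against 3903 CPM in replicate 2, with Mir142b at 0 in both. Of the 5 tested, 3 were higher in replicate 1 and 2 in replicate 2, beside 38.7% and 39.3% of all tested genes, and the median log2 ratio was -0.52 against 0.01. Mir146, an inflammation-induced microRNA, had 1479 and 2008 CPM (log2 ratio 0.26), and with Mir150 it carries the higher sum of replicate 2. Mir142, a marker of all white cells named after its value was seen, was higher in replicate 1 (-0.52), as were Mir155 and Mir223. The sum and the median of this list thus differ in direction. Each of its 5 tested genes had a ratio nearer 0 than that of Mir451a, but so did nearly all 333 tested genes. That does not set the list apart.

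The endothelial genes Mir126a and Mir126b summed to 74842 and 64797 CPM. Mir126a was higher in replicate 1 (log2 ratio -0.39), and Mir126b, with 51 and 23 counts, did not pass the test (-0.22, adjusted p = 0.659). In these libraries of whole tissue, fewer red cells and less of these microRNAs per cell cannot be told apart. The part of the amount of blood left in each gland in the difference of Mir451a and Mir144 was not tested.

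Striated muscle, the other tissue known for miR-486, left few counts. Its 10 genes summed to 6.67 CPM in replicate 1, against 11.1 CPM in replicate 2. No gene of the list reached 10 counts in each library, and 5 were at 0 in both: Mir1a-1, Mir1a-2, Mir133a-1, Mir133a-2 and Mir133b. The first 4 are numbered copies, and reads shared by copies are outside the counts. The highest were Mir499 at 3.12 and 4.33 CPM and Mir206 at 1.11 and 5.29 CPM. No marker list of adrenal cell types was checked.

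**Figure D4:**
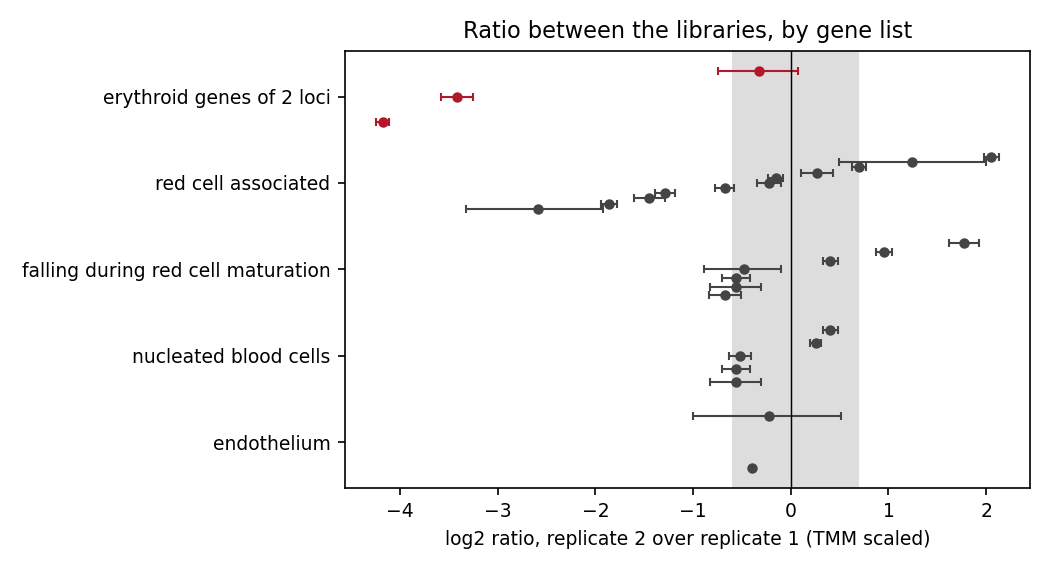
Points are log2 ratios of replicate 2 over replicate 1 after TMM scaling for tested genes of each list, with exact 95% counting intervals, and the grey band spans the quartiles of all 333 tested genes (-0.59 to 0.69). Mir451a and Mir144 lie left of every gene of the other lists, as of all other tested genes except Mir301. Mir486 lies in the band, and the red cell list spreads on both sides.

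The libraries also differed in yield. Replicate 1 held 12289288 reads with 4494857 assigned to genes (36.6%), and replicate 2 held 10323816 with 2078824 assigned (20.1%). Unmapped reads were 26.4% and 51.9%, and reads outside microRNA genes 7.16% and 6.46%. For each 1000000 of all reads, Mir451a had 5253 in replicate 1 and 182 in replicate 2, and Mir486 had 14.2 and 7.07. With 1 library from each animal, differences between the animals, the dissection and the library preparation cannot be told apart.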

How the data were processed

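The authors deposited raw read counts per microRNA gene for each of the 2 libraries, in a column without regard to strand and a column per strand, as the file layout shows. Per the deposited text lists, mm10 was the assembly and GENCODE M21 the annotation. The sources used here do not give the aligner or counter. All 2202 identifiers matched GENCODE M21. Rows that name no gene (unmapped, several places, outside genes) stayed out of library sizes, and their shares are in the report.

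The genes and lists were chosen with earlier results of these data known. The text names the 5 genes, the 2 highest of each list, the 3 nearest to Mir451a in library ratio, and microRNA genes within 10 kb. Others are named as chosen later. Exact Clopper-Pearson 95% intervals, binomial tests, edgeR 4.0.16 and DESeq2 1.42.0 in R 4.3.3, SciPy 1.17.1 in Python 3.11.15, and RNAfold 2.7.2 were used. The binomial test was tried on simulated counts that held counting error alone, which cannot check it against spread between animals. P-values measure only the difference between these 2 samples. Alternatives covered scaling, count minimum, strand column, denominator, GC content, test and single libraries.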

Additional observations from a re-analysis of the deposited data

How the results depend on the processing

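The difference of Mir451a and Mir144 kept its direction under every scaling, count minimum and correction tried, with log2 ratios from -4.35 to -3.99 and from -3.58 to -3.08. Both passed the binomial test in each of these fits that held counts for them. Mir144 missed the threshold with edgeR's exact test (log2 ratio -3.42), also with 50 counts in both (-3.43) or no minimum (-3.58), and Mir451a with edgeR and no minimum (-4.35). In those 3 edgeR fits 6 of 333, 3 of 259 and 7 of 749 genes were called in all. Of the 5 genes, 1, 1 and 0 were called. Mir486 became called with no minimum (-0.49), beside 299 of 749 genes, and with the GC correction (-0.66), beside 252 of 333. That correction was added after seeing the data, like the last 2 edgeR fits, and the cause of these calls was not tested. In the strand-blind column 1 of the 5 genes was called, since 4 have no counts there, beside 241 of 304 genes. Means of Mir451a, Mir486 and Mir3107 in that column, and the ratio of Mir451a to Mir144, were 0. The ratio of Mir451a to Mir486 could not be formed there. For each 1000000 of all reads or of mapped reads, the mean of Mir451a was 2717 and 3760, and that of Mir144 279 and 390. By the same totals Mir486 had 10.6 and 17.0 and Mir3107 0.486 and 0.835. Leaving out either library gave 903 to 14362 CPM for Mir451a, 153 to 1441 for Mir144, 35.1 to 38.7 for Mir486 and 1.34 to 2.41 for Mir3107, and ratios of 5.88 to 9.97 over Mir144 and 25.7 to 371 over Mir486. With 6 and 5 counts, the counting interval of the Mir3107 log2 ratio runs from -1.56 to 2.47, and Mir451b gives no ratio.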
